A study of Mus musculus with 8 samples.

Results

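Native Nr5a2 and native Oct4 were compared as the Flag-tagged, unfused forms of both factors, through the peaks of 2 CUT&Tag libraries of mouse embryonic fibroblasts (MEFs). CUT&Tag is an assay in which an antibody, here against the Flag epitope of the delivered factor, recruits a transposase that inserts sequencing adapters into nearby DNA. The members were all peaks called in the library titled Nr5a2 (108030 peaks) and in the library titled Oct4 (54794 peaks), 162824 of the 661009 peaks in the 8 libraries of the series. The other 6 libraries hold the fusions Nr5a2BiD and Oct4BiD, in which the factor carries a domain of SS18 that binds the chromatin remodeller BRG1, and Sox2 and Nanog in both forms. Per the study's methods, the MEFs carried the OG2 (Oct4-GFP) reporter and received the factors by retrovirus, and the series' design text places the libraries at day 3. The labels give 100000 cells per sample and mouse embryonic fibroblast as the cell type. They do not say which other factors, if any, were delivered to the same cells.

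There was 1 library for each factor, no control library is named, and the study describes the assay as performed once without biological replicates. No test between the libraries was therefore possible, and the 95% confidence intervals below are exact (Clopper-Pearson) unless stated and cover counting error over peaks only. The study lists nearly equal numbers of uniquely aligned read pairs for both libraries, but the depth after its filters is unknown. The median summit height, the number of tags at the highest point of a peak, was 21 tags for Nr5a2 and 17 tags for Oct4, and the lowest was 8 tags in both. As a check of the label, 3 Nr5a2 summits lay on coding exons of the Nr5a2 gene itself, where tags of a delivered coding sequence would also map, with heights from 32 to 75 tags, and no Oct4 summit lay there. No summit of either list lay on a coding exon of Pou5f1, the gene of Oct4, so this measure does not check the Oct4 library.

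Nr5a2, also called LRH-1, is an orphan nuclear receptor that binds DNA as a monomer, at a short receptor site preceded by a fixed extension. It is known in liver and gut for control of bile acid and cholesterol genes, in the early embryo for support of Oct4 expression, and in reprogramming as a factor that can stand in for delivered Oct4. Oct4 is a POU transcription factor. Its POU-specific domain and its homeodomain together contact the octamer, and it is a core regulator of pluripotent cells.

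The sequences that carry the comparison are those under the summits, since each factor's own motif was enriched at its own summits and not at those of the other, although only a minority of summits held it. Windows of 50 bp to either side of the summit are given on the plus strand of mm10 in lower case, with the motif in capitals. They were taken from the highest scoring regions of each class with the motif in the window, outside annotated untranslated exons. The score is 10 times the negative log10 of the peak caller's p-value. Nr5a2 regions without an Oct4 peak are shown with the NR5A motif (TCAAGGTCA or TCAAGGCCA on either strand). The first lay at chr1:64649891-64649991, in a noncoding exon. Its summit was 6 bp from the start site of the noncoding gene Gm29152 and 32.7 kb from the nearest protein-coding start site (Mettl21a). Another lay at chr14:76528129-76528229, in a noncoding exon 23.1 kb from Tsc22d1. The last lay at chr10:58653057-58653157, in an intron 22.5 kb from the start site of Edar. The scores were 1263, 1156 and 1102, and all 3 regions were also peaks in Nr5a2BiD and not in Oct4BiD. All 3 were peaks in Nanog and NanogBiD as well, and the region near Mettl21a also in Sox2BiD.
Nr5a2 near Mettl21a: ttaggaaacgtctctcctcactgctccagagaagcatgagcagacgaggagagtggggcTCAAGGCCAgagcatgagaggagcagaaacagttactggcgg
Nr5a2 near Tsc22d1: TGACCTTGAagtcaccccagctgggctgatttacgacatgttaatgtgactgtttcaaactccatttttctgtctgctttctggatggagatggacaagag
Nr5a2 near Edar: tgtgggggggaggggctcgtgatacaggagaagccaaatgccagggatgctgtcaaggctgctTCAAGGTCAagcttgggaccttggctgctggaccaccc

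Oct4 regions without an Nr5a2 peak are shown with the octamer (ATGCAAAT on either strand). They lay in intergenic sequence at chr1:138929141-138929241, 34.2 kb from Dennd1b, and in an intron at chr14:16289214-16289314, 28.6 kb from Ngly1. Their scores were 945 and 919. Both were also peaks in Oct4BiD and not in Nr5a2BiD. The region near Dennd1b was a peak in Sox2, Nanog and NanogBiD as well, and that near Ngly1 in no further library.
Oct4 near Dennd1b: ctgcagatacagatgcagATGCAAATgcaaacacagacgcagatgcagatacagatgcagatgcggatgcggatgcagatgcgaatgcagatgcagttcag
Oct4 near Ngly1: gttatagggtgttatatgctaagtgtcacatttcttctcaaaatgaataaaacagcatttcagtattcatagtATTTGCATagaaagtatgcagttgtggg

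The last Oct4 sequence lay in intergenic sequence at chr6:141159047-141159147, 90.2 kb from Pde3a (score 477). It holds ATGCAT repeated with no gap, a rare palindromic arrangement described with the motifs below. The capitals mark this repeat only, and the window also holds an octamer near its start, left in lower case. The region was also a peak in Oct4BiD, Nanog and NanogBiD.
Oct4 near Pde3a: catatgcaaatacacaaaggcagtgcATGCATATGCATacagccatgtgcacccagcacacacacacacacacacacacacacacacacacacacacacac

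A region shared by both factors is shown with its 2 summit windows, to let the distance between the motifs be seen. It lay in intergenic sequence 198 kb from Ube2e1, with the Nr5a2 summit window at chr14:18530219-18530319 (score 588) and the Oct4 summit window at chr14:18531013-18531113 (score 555). The capitals mark the NR5A core (CAAGGTCA or CAAGGCCA, the motif without its first letter) in the first and the octamer in the second. The summits were 794 bp apart, which is not typical, since the median over all shared regions was 170 bp. Only 51 of 13851 shared regions held both motifs at their summits.
shared, Nr5a2 summit: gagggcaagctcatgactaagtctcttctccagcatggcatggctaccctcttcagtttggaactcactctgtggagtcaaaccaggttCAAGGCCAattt
shared, Oct4 summit: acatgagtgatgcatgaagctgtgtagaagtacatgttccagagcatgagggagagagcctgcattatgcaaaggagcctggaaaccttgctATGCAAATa

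Most sites were not shared. Merging the lists at an overlap of 1 bp or more gave 148534 regions, of which 13851 (9.33%) held peaks of both. The shared class took 14070 Nr5a2 peaks, 13.0% of that list, and 14071 Oct4 peaks, 25.7% of that list. It left 93960 Nr5a2 only peaks and 40723 Oct4 only peaks. In 13422 of the shared regions there was exactly 1 peak of each list.

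The lists differ in length. With the Nr5a2 list cut to as many peaks as the Oct4 list holds, by score, 9913 regions were shared, with 18.1% of the Nr5a2 and 18.5% of the Oct4 peaks. Among the 20000 highest scoring peaks of each list there were 2664 shared regions of 37330 (7.14%), and among the highest 5000 there were 324 of 9676 (3.35%). When the top 20000 of a list were compared with the whole of the other, 26.7% of the Nr5a2 peaks and 29.6% of the Oct4 peaks overlapped. The strongest sites of each factor were thus mostly sites without a peak of the other.

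The shared share depended on the score in the Nr5a2 list more steeply than in the Oct4 list. In the highest scoring 10% of Nr5a2 peaks 31.2% (30.4 to 32.1) overlapped an Oct4 peak, and in the lowest scoring 10% 6.54% (6.09 to 7.03) did. In the Oct4 list the share was 29.0% (27.8 to 30.2) in the highest scoring 10% and 20.1% (19.02 to 21.2) in the lowest. The median score was 213 in shared and 117 in Nr5a2 only peaks of the Nr5a2 list, and 117 in shared and 102 in Oct4 only peaks of the Oct4 list. Shared peaks were also wider, with a median of 1114 bp against 775 bp in the Nr5a2 list and 864 bp against 760 bp in the Oct4 list. A wider peak meets an overlap of 1 bp more easily, and the part of width in the trend with score was not tested.

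**Figure D1:**
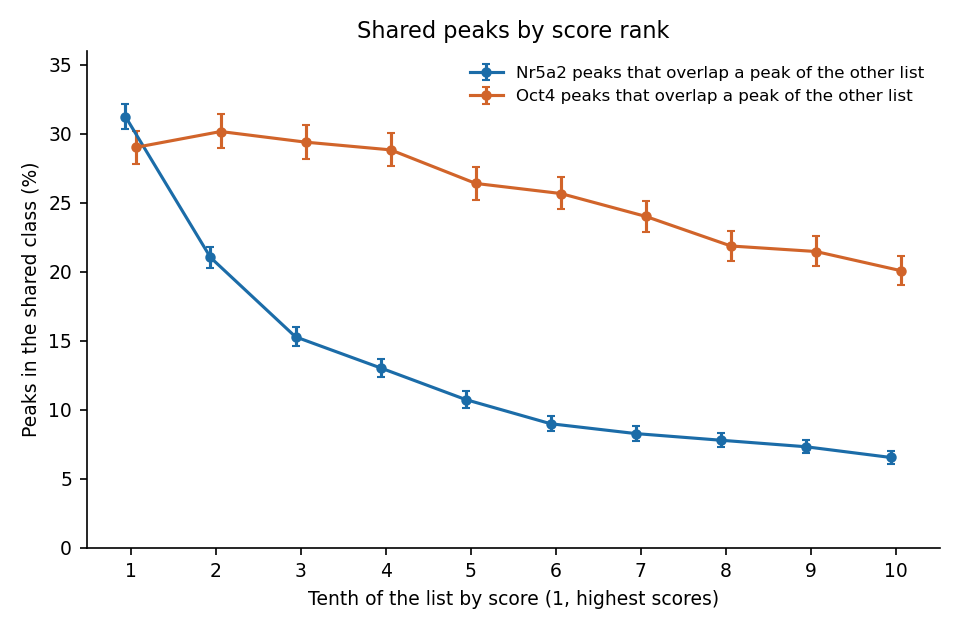
Share of peaks that overlap a peak of the other list (%) for 10 score bins of equal size, from the highest scores (1) to the lowest (10), with exact 95% intervals. The Nr5a2 share falls from 31.2% to 6.54%, and the Oct4 share stays between 20.1% and 30.2%.

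The classes recurred in the fusion libraries of the same factor, which were not used to form them. Of Nr5a2 only peaks 57.1% (56.8 to 57.4) overlapped an Nr5a2BiD peak, against 10.3% (10.1 to 10.5) that overlapped an Oct4BiD peak. Of Oct4 only peaks 68.6% (68.2 to 69.1) overlapped an Oct4BiD peak, against 3.95% that overlapped an Nr5a2BiD peak. In the top 20000 of each list the shares in the own fusion were 96.5% for Nr5a2 peaks without an Oct4 peak and 88.3% for Oct4 peaks without an Nr5a2 peak. The overlap with the fusion of the other factor was also higher in these top peaks, at 14.5% for Nr5a2 and 4.83% for Oct4. In both score ranges each single class overlapped the fusion of its own factor more often than that of the other. Part of this contrast is built in, because the single classes leave out peaks that overlap the native form of the other factor. In the whole lists, before classing, 60.68% of Nr5a2 peaks overlapped an Nr5a2BiD peak and 19.99% an Oct4BiD peak. Of all Oct4 peaks 73.12% overlapped an Oct4BiD peak and 24.4% an Nr5a2BiD peak. The direction was the same there, and the contrast was smaller.

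Shared peaks recurred in nearly every library. The Nr5a2 peaks of the shared class overlapped Nr5a2BiD in 84.7%, Oct4BiD in 85.0%, Nanog in 73.6%, NanogBiD in 72.7%, Sox2BiD in 67.4% and Sox2 in 38.0% of cases. In all, 82.8% overlapped a peak of at least 1 Sox2 or Nanog library, compared with 30.3% of Nr5a2 only and 37.3% of Oct4 only peaks. At promoters this share of the shared class was 94.9%, and at distal sites it was 70.4%. Just 2.11% of the shared Nr5a2 peaks were in none of the other 6 libraries, against 32.5% of Nr5a2 only and 22% of Oct4 only peaks. The shared class was thus also the class with most peaks of factors other than these. No control library is named, and the part of signal common to all libraries in the overlap was not tested.

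**Figure D2:**
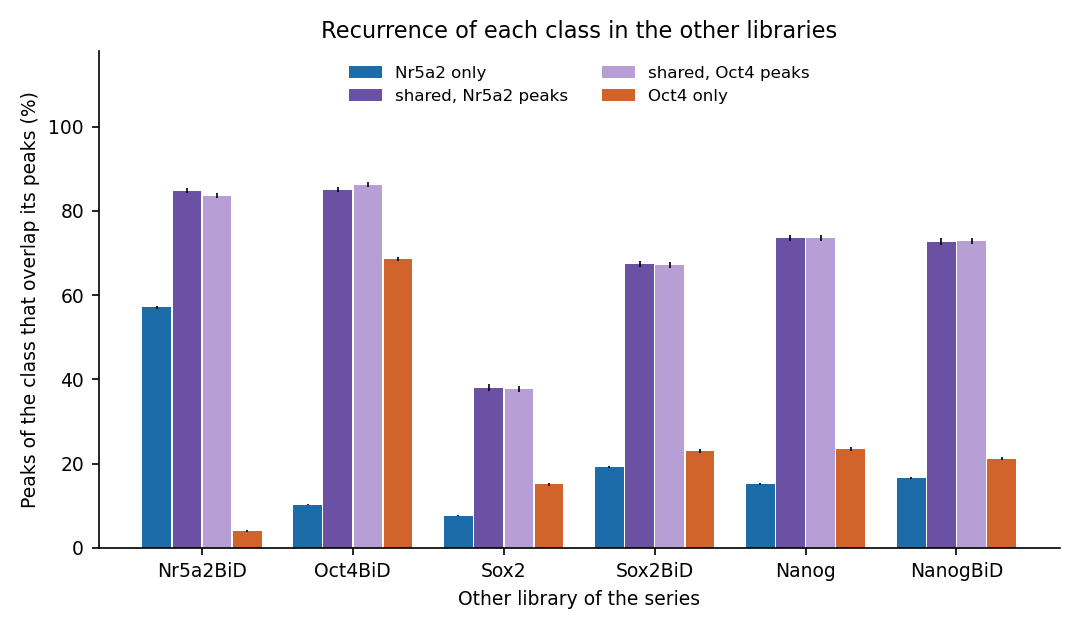
Share of peaks of each class (%) that overlap a peak of each other library, with exact 95% intervals as error bars. The single classes peak in the fusion of their own factor (57.1% and 68.6%), and the shared class is high in all libraries but Sox2 (38.0%).

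Summits of the shared class lay at promoters more often than those of the single classes, although 6672 of the 13851 shared regions had no promoter summit. A summit was called promoter when it lay within 2 kb of an annotated start site, which held for 50.7% (49.9 to 51.5) of shared Nr5a2 summits and for 51.4% of shared Oct4 summits. It held for 18.7% (18.4 to 18.9) of Nr5a2 only summits and for 10.4% (10.1 to 10.7) of Oct4 only summits, beside 11.3% of 52937 places set every 50 kb along the genome. Within 500 bp of a start site lay 41.3% of shared Nr5a2 summits, 8.06% of Nr5a2 only summits and 3.23% of Oct4 only summits, against 3.30% of the places. The Oct4 only class was therefore near the genome level at promoters, and the Nr5a2 only class was above it. The median distance to a start site was 1.79 kb for shared Nr5a2 summits, 9.59 kb for Nr5a2 only and 16.6 kb for Oct4 only. In the top 20000 lists, classed among themselves, the promoter shares were 72.4% (shared), 27.6% (Nr5a2 only) and 14.3% (Oct4 only).

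**Figure D3:**
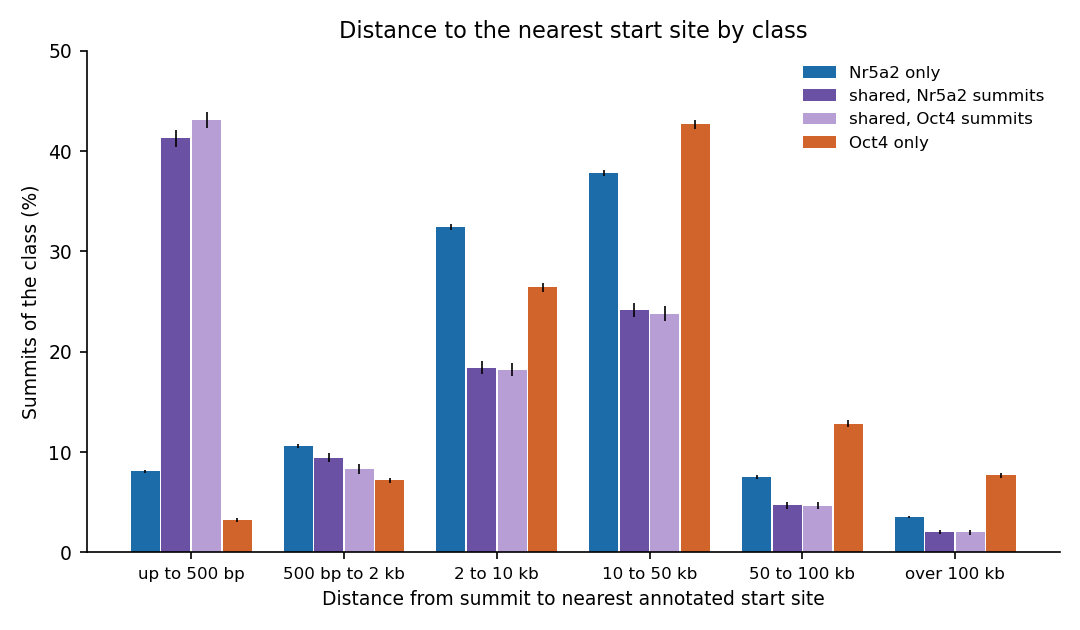
Share of summits (%) by distance to the nearest annotated start site for Nr5a2 only, both summit sets of the shared class and Oct4 only, with exact 95% intervals. Shared summits stand out within 500 bp (41.3% and 43.1%), and Oct4 only summits are the most frequent beyond 50 kb.

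Base composition set the single classes apart as well. The median GC content within 100 bp of the summit was 49.8% in Nr5a2 only and 40.8% in Oct4 only, beside 41.8% at the genome places. Shared promoter summits had a median GC content of 62.7% at the Nr5a2 summit and 63.2% at the Oct4 summit. Their median ratio of observed to expected CpG was 0.725 and 0.758, compared with 0.144 at the genome places, and were thus richer in CpG than the genome at large. Shared distal regions had 49.3% GC at the Nr5a2 summit and 44.8% at the Oct4 summit, beside 48.8% at Nr5a2 only and 40.8% at Oct4 only distal summits. Summits lay in masked repeats in 13.6% of Nr5a2 only, 24.0% of Oct4 only and 7.89% of shared Nr5a2 summits, against 36.5% of the places. Introns held 51.5% of Nr5a2 only and 51.7% of Oct4 only summits, and coding exons held 2.80% and 0.511%.

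Each factor's motif was found at its own summits and not at those of the other. The share of summits with a match within 50 bp was set against that of flanks, equally wide windows placed 500 bp upstream and downstream and averaged, with intervals from the counts on a log scale. The NR5A motif was in 6.76% of Nr5a2 only windows, 8.50-fold (8.04 to 8.98) above the flanks, and in 0.591% of the genome places. Its core was in 17.4%, 9.66-fold (9.32 to 10.02) above the flanks. At Oct4 only summits the NR5A motif was in 0.201% of windows, 0.369-fold (0.292 to 0.467) of the flanks.

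The octamer was the mirror image. It was in 4.73% of Oct4 only windows, 6.33-fold (5.78 to 6.93) above the flanks, and in 0.330% of Nr5a2 only windows, 0.610-fold (0.538 to 0.693) of the flanks, beside 0.861% of the genome places. ATGCAT repeated with no gap was in 111 of 40712 Oct4 only windows (0.273%), 18.5-fold (10.2 to 33.6) above the flanks, and in 0 of 93947 Nr5a2 only windows, which allows a share of up to 0.00393%. The genome places held it in 0.00189%. The sequence near Pde3a above is of this kind.

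With falling score the motifs moved in opposite directions. The NR5A motif rose from 4.13% of windows in the highest scoring 10% of Nr5a2 peaks to 7.84% in the lowest, while the share of promoter summits fell from 36.8% to 16.9%. The octamer fell from 6.50% in the highest scoring 10% of Oct4 peaks to 3.23% in the lowest, and the promoter share was 18.1% and 17.7%. In the top 20000 lists, classed among themselves, the NR5A enrichment of Nr5a2 only summits was 4.74-fold, and that of the octamer at Oct4 only summits was 7.28-fold.

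In shared regions each motif kept to its own summit, at a lower rate. The NR5A motif was in 3.21% of Nr5a2 summits, 4.78-fold (4.04 to 5.66) above the flanks, and in 0.284% of Oct4 summits, 0.287-fold (0.206 to 0.399) of the flanks. The octamer was in 2.57% of Oct4 summits, 5.35-fold (4.39 to 6.51) above the flanks, and in 0.619% of Nr5a2 summits, 0.892-fold (0.694 to 1.15) of the flanks. Since the flanks of a shared summit can reach the summit of the other factor, these ratios can also reflect its motif. Counting the NR5A core at the Nr5a2 summit and the octamer at the Oct4 summit, 51 of 13851 shared regions had both (0.368%), and 12265 (88.6%) had neither.

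Of the other motifs, AP-1 was enriched in every class, and SP/KLF and CCAAT were most frequent at shared promoters. AP-1 (TGACTCA or TGAGTCA), the site of the Fos and Jun factors, was 3.46-fold above flanks in Nr5a2 only, 2.96-fold in shared Nr5a2 and 2.81-fold in Oct4 only summits. TEAD (CATTCCA or CATTCCT) was 2.08-fold in Oct4 only and 1.48-fold in Nr5a2 only summits, and RUNX (AACCACA) was 1.67-fold and 0.959-fold. RUNX was thus above the flanks at Oct4 only summits and not at Nr5a2 only summits. SP/KLF (GGGCGGGG), the GC box of promoters, was in 14.7% of shared promoter Nr5a2 summits and 15.1% of shared promoter Oct4 summits, beside 2.85% of Nr5a2 only and 1.49% of Oct4 only promoter summits. The CCAAT box (CCAATCAG) was 7.51-fold (5.41 to 10.4) above flanks at shared promoter Nr5a2 summits and 13.4-fold (9.14 to 19.7) at shared promoter Oct4 summits. SOX (CCATTGTT) was below the flanks in shared regions, at 0.568-fold of Nr5a2 and 0.488-fold of Oct4 summits. NANOG letters (GCCATTA) were near 1-fold in Oct4 only summits, at 1.02-fold.

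**Figure D4:**
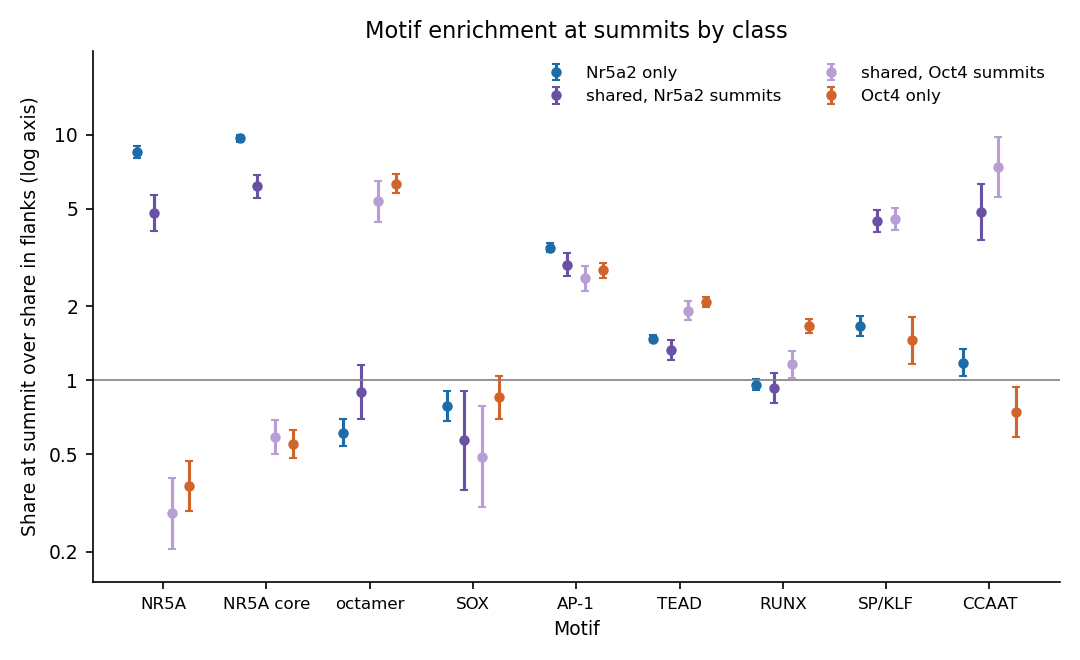
Share of summits with a motif within 50 bp over the share in flanks 500 bp away (log axis), with 95% intervals, for Nr5a2 only, both summit sets of the shared class and Oct4 only. NR5A letters are above 1 only at Nr5a2 summits, the octamer only at Oct4 summits, and SP/KLF and CCAAT are highest in the shared class.

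In most shared regions the summits of both factors lay more than 100 bp apart. The median distance between the nearest Nr5a2 and Oct4 summits was 170 bp (interquartile range 55 to 484) over 13851 regions, and 37.8% (37.0 to 38.7) of the pairs were within 100 bp. The same measure was taken in those of these regions that also held a peak of the fusion. Between Nr5a2 and Nr5a2BiD it was 42 bp (14 to 97) in 11855 regions, and between Oct4 and Oct4BiD 49 bp (17 to 114) in 11980. Within 100 bp lay 75.8% and 71.9% of these pairs. The spacing between the factors was therefore wider than that between libraries of the same factor. At shared promoters the median was 107 bp with 48.6% within 100 bp, and at shared distal regions it was 273 bp with 26.2% within 100 bp. In the shared regions that also held a Nanog peak, Oct4 and Nanog summits were 74 bp apart at the median (10183 regions). Nr5a2 and Nanog summits were 116 bp apart (10228 regions). Nanog overlapped 90.1% of promoter and 56.7% of distal shared Nr5a2 peaks. These subsets thus hold more promoters, and their medians cannot be set directly against 170 bp.

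**Figure D5:**
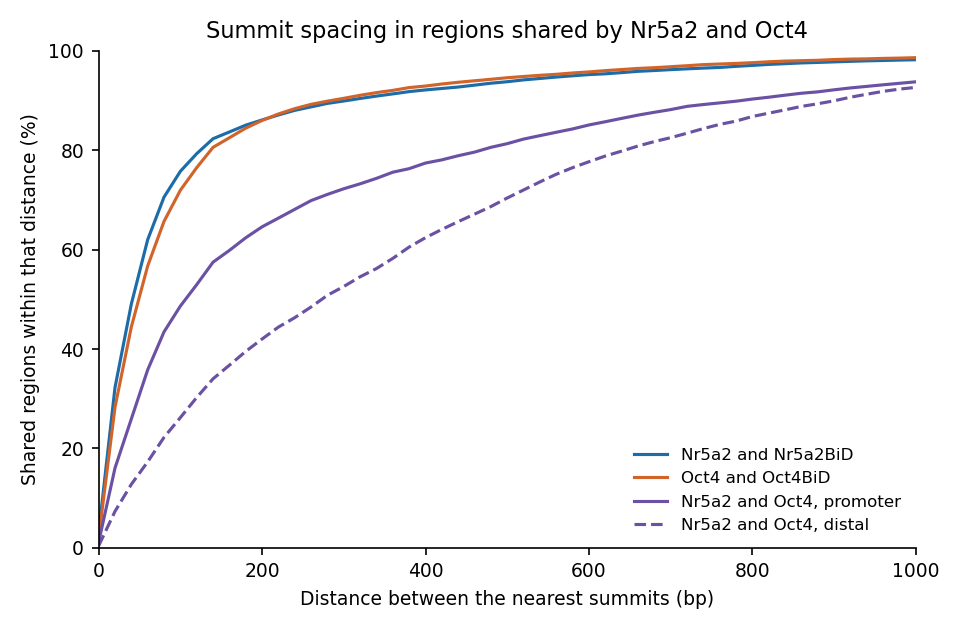
Cumulative share of regions (%) against the distance between the nearest summits (bp), for Nr5a2 and Oct4 in their shared promoter and distal regions. The same is drawn for each factor and its BiD fusion, in those shared regions that also held a peak of the fusion. The same-factor curves reach 75.8% and 71.9% at 100 bp, while Nr5a2 and Oct4 reach 48.6% at promoters and 26.2% at distal sites.

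The spacing was widest where a factor had its own motif. In 1276 shared regions the Nr5a2 summit held the NR5A core. There the core lay 23.5 bp from the Nr5a2 summit at the median, which the choice of window fixes to within 50 bp, and 424 bp (179 to 706) from the Oct4 summit. From the same cores to the Nr5a2BiD summit, where a peak overlapped, the median was 46.5 bp in 970 cases. The summits of both factors were 412 bp apart in regions with the core and 151 bp apart in the 12575 regions without it, and 16.0% (14.0 to 18.1) against 40.1% (39.2 to 40.9) were within 100 bp. The difference was present at promoters (464 and 98 bp) and at distal sites (394 and 252 bp).

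The octamer gave the same picture from the Oct4 side. In 361 shared regions with the octamer at the Oct4 summit, the motif lay 342 bp (129 to 669) from the Nr5a2 summit and 29.5 bp from the Oct4BiD summit, the latter in 347 cases. The summits were 345 bp apart with the octamer and 167 bp apart in the 13490 regions without it. When only summits within 100 bp of each other were called shared, 5241 regions were left, and the NR5A enrichment at their Nr5a2 summits was 1.48-fold (1.03 to 2.12). The octamer enrichment at their Oct4 summits was 3.58-fold (2.47 to 5.19). Both were below the values for regions that overlapped by peak edges, and the octamer kept more of its enrichment than the NR5A motif.

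The distance to the other factor was read from each single class. From an Nr5a2 only summit the nearest Oct4 summit was 12.6 kb away at the median, and 21.7% had one within 5 kb. From an Oct4 only summit the nearest Nr5a2 summit was 7.88 kb away, and 36.3% had one within 5 kb. The list with more summits gives the shorter distance, so these values describe density. Within a class the median distance to the next summit was 6.52 kb for Nr5a2 only, 17 kb for Oct4 only and 35.2 kb for shared regions.

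The strongest regions showed the same contrast by name. The highest scoring Nr5a2 only peak, also first in its list, lay 3.17 kb from Thrsp, a gene of lipid synthesis in liver and fat, with a score of 1494 and a height of 106 tags. Others of the first 10 lay in an intron 2.93 kb from the start site of Ash2l, a subunit of histone H3K4 methyltransferase complexes (score 1333), 0.254 kb from the start site of Ppm1h, a protein phosphatase (score 1360), 0.556 kb from that of Kcnip4, a potassium channel partner (score 1331), and 0.115 kb from that of Pm20d2 (score 1315). All 10 recurred in Nr5a2BiD and 1 in Oct4BiD, and 5 of 10 lay within 2 kb of an annotated start site. Of the 10, 1 was also a peak in Sox2, 3 in Sox2BiD, 4 in Nanog and 6 in NanogBiD. The scores of the 10 ran from 1263 to 1494.

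The first 10 Oct4 only peaks, with scores from 990.01 to 1271, lay far from start sites, with 1 of 10 within 2 kb. The strongest was 22.8 kb from Prrc2c with 117 tags. Next came an intron 59.9 kb from the start site of Col5a2, a fibrillar collagen chain (score 1116), a site 104 kb from Cd47, an inhibitor of phagocytosis (score 1108), and a site 14.7 kb from Scarb2, a lysosomal membrane protein (score 1093). The region nearest to Epha4, an ephrin receptor (score 993), was the 1 within 2 kb of a start site. It lay 244 bp from that of the microRNA gene Mir6352 and 18.1 kb from that of the protein-coding transcripts of Epha4. All 10 recurred in Oct4BiD and 1 in Nr5a2BiD. Of the 10, 6 were also peaks in Sox2, 6 in Sox2BiD, 7 in Nanog and 7 in NanogBiD.

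The shared regions were ordered by the poorer of their ranks in the lists, as a percentage of each list. Of the first 10, 8 lay within 2 kb of a start site, and 8 of 10 were peaks in all 6 other libraries. The first lay 4 bp from the start site of Sod2, the mitochondrial superoxide dismutase, with scores of 896 for Nr5a2 and 862 for Oct4 and summits 34 bp apart. Cryzl1 (summits 48 bp apart), Ppm1b (137 bp), Kctd9 (131 bp) and Hdlbp, an RNA-binding protein (622 bp), were also among them, each with its Nr5a2 summit at a protein-coding start site. The second region overlapped the noncoding gene Gm26917 on chromosome 17. The fifth lay at Ppp2r3d on chromosome 9, where the Oct4 score of 1584 was the second highest of its list and the summits were 1589 bp apart. Both were peaks in all 6 other libraries. The lists were not filtered here for regions of artefact signal, so these regions cannot be read as binding sites without that check. Only the regions near Chd9, a chromatin remodeller (38.8 kb), and Adam12, a metalloprotease of mesenchymal cells (85.6 kb), had no start site within 2 kb.

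At the level of genes, most genes with an Oct4 promoter summit also had an Nr5a2 promoter summit when the whole lists were used. The Nr5a2 list is 1.97 times as long as the Oct4 list, which raises this overlap. Of 21853 protein-coding genes 60.7% (13272) had an Nr5a2 summit within 2 kb of a start site and 36.6% (7998) had an Oct4 summit. Of the genes with an Oct4 summit 7329 (91.6%) also had an Nr5a2 summit. By class, 31.7% of genes had a shared summit, 35.6% an Nr5a2 only summit and 7.36% an Oct4 only summit. Genes with Oct4 but no Nr5a2 summit numbered 669, and genes with Nr5a2 but no Oct4 summit 5943. Restricted to the top 20000 peaks of each list, the shares were 25.9% for Nr5a2 and 16.3% (3557 genes) for Oct4. With these top lists classed among themselves, 2159 genes had a shared and 1475 an Oct4 only promoter summit. The near inclusion seen in the whole lists was thus not present in lists of equal length.

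The promoters of 28 pluripotency genes held summits of both factors at shares somewhat below those of all genes, a gap of few genes that was not tested. An Nr5a2 promoter summit was present at 15 of 28 (53.6%) and an Oct4 promoter summit at 8 of 28 (28.6%), beside 60.7% and 36.6% of all protein-coding genes. The 6 with a shared promoter summit were Klf2, Klf4 and Klf5, zinc finger factors of the naive state, the T-box factor Tbx3, Fbxo15 and the DNA demethylase Tet2. Nr5a2 only promoter summits were at 9, among them Tfcp2l1, Prdm14, Sall4, Nr0b1 and Lefty1. Within the top 20000 of each list the order was the other way, with 2 genes for Nr5a2 (7.14%) and 7 for Oct4 (25%), beside 25.9% and 16.3% of all genes.

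Around the same genes Nr5a2 summits outnumbered Oct4 summits. Summed gene by gene within 100 kb of their start sites, the counts were 435 Nr5a2 and 134 Oct4 summits, a ratio of 3.25 (2.67 to 3.97). The lists as a whole gave 1.97, and all protein-coding genes, summed in the same way, gave 2.64. A summit near several genes was counted for each of them, here and in the gene lists below. The intervals of these ratios ignore such repeats and are too narrow. Among the top 20000 of each list the ratio was 1.5 (0.989 to 2.30), and over all protein-coding genes it was 1.52. Esrrb, a nuclear receptor of the naive state, had 22 Nr5a2 summits and 1 Oct4 summit, and Fgf4 had 26 and 1. Sox2 had 12 and 2, and Pou5f1 had 14 and 3, none of these within 2 kb of a start site. Nanog had 11 and 9, of which 2 of each were shared, and only Zfp42, with 1 and 2, had more Oct4 than Nr5a2 summits.

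The 22 genes known as Nr5a2 targets in liver, gut and steroid tissue did not stand above the background at their promoters. Promoter summits were present at 12 of 22 (54.6%) for Nr5a2 and at 5 of 22 (22.7%) for Oct4, beside 60.7% and 36.6% of all protein-coding genes. Nr0b2, the repressor of bile acid synthesis, had 26 Nr5a2 and 7 Oct4 summits within 100 kb, with an Nr5a2 only summit at the promoter. Cyp7a1, the rate-limiting enzyme of bile acid synthesis, had 16 and 8, and its promoter summit was Oct4 only. Scarb1, a lipoprotein receptor, had 37 and 9, and Cyp11a1, the first enzyme of steroid synthesis, had 25 and 2. All 22 genes had more Nr5a2 than Oct4 summits, as had 82.6% of all protein-coding genes.

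Mesenchymal and epithelial genes were counted next, as genes of the starting fibroblasts and of a cell type these cells are not. Of 24 mesenchymal genes 16 (66.7%) had an Oct4 promoter summit and 21 (87.5%) an Nr5a2 promoter summit, beside 36.6% and 60.7% of all genes. Of 16 epithelial genes 1 (6.25%) had an Oct4 promoter summit, Tjp1, a tight junction protein, and 11 (68.8%) had an Nr5a2 promoter summit, the latter near the share of all genes. In the top 20000 of each list Oct4 promoter summits were at 11 of 24 mesenchymal and 0 of 16 epithelial genes, beside 16.3% of all genes, and Nr5a2 promoter summits at 9 of 24 and 3 of 16, beside 25.9%.

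Shared promoter summits of the mesenchymal list included Col1a1 and Col3a1, collagen genes of fibroblasts, Fn1 and Vim, the genes of fibronectin and vimentin, and Twist1 and Snai2, factors of mesenchymal identity. Oct4 only promoter summits were at 6 of 24 (25%), among them Col1a2 and Acta2, beside 7.36% of all genes. Within 100 kb Postn, a matrix protein, had 7 Nr5a2 and 15 Oct4 summits and Fn1 had 9 and 12, while Col5a1 had 42 and 11. The ratio of Nr5a2 to Oct4 summits was 1.95 (1.66 to 2.30) for the mesenchymal list and 3.23 (2.56 to 4.12) for the epithelial list, beside 2.64 over all genes. With the top 20000 of each list these ratios were 1.17 and 2.44, beside 1.52. Among epithelial genes Epcam had 14 and 3, Cdh1, the gene of E-cadherin, 19 and 6, and Cldn7, a claudin, 26 and 10, of which 9 of each were shared.

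Genes of the factors' own families were counted in the same way. Of 15 POU genes 9 had an Nr5a2 and 6 an Oct4 promoter summit, close to the 60.7% and 36.6% of all genes. The ratio of summits within 100 kb was 2.22 (1.67 to 2.96), beside 2.64 over all genes. It was 0.743 in the top 20000 of each list (0.429 to 1.27), beside 1.52 over all genes. Pou2f1, a widely expressed octamer-binding factor, had 3 Oct4 and 2 Nr5a2 promoter summits, and Pou3f3 had 5 Oct4 and 2 Nr5a2 summits within 100 kb. Of 38 nuclear receptor genes 32 (84.2%) had an Nr5a2 and 22 (57.9%) an Oct4 promoter summit, beside 60.7% and 36.6% of all genes, and the ratio was 2.89 (2.50 to 3.35), beside 2.64. Thra had 29 and 16 summits within 100 kb, Rora 35 and 11, and Pparg, the receptor of fat cell differentiation, 11 and 4 with 2 Oct4 only summits at its promoter.

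Genes that collected most summits were long. For the 10 genes with most Nr5a2 only summits, counted to the nearest start site within 100 kb, the count ran from 45 to 60 and the median gene span was 665 kb, beside 17.4 kb over all protein-coding genes. Kalrn, a guanine nucleotide exchange factor, had 60 Nr5a2 only, 3 shared and 8 Oct4 only summits, and Agap1 had 48, 4 and 6. For Oct4 only summits the counts ran from 20 to 48, with Pde4d, a cyclic AMP phosphodiesterase, at 48 Oct4 only, 45 Nr5a2 only and 10 shared. Trpm3, a cation channel, went the other way from Kalrn, with 23 Oct4 only and 6 Nr5a2 only summits. Pde4d, Rbfox1, Ank3 and Frmd4a were among the first 10 of both single classes. Among the first 10 for shared regions were the short genes Ccn1, a matrix-associated signalling protein, with 8 shared, 6 Nr5a2 only and 0 Oct4 only summits, and Irf2bp2, with 8, 11 and 6.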

How the data were processed

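Flag CUT&Tag was analysed in mouse embryonic fibroblasts at day 3 of reprogramming (per the series' design text), 1 library for each of 8 constructs. Samples were grouped by their titles. Per the submitters' processing notes and the study's methods, reads were trimmed by the authors (Trim Galore 0.6.4), who then aligned them to mm10 with Bowtie2 2.4.5, filtered them with SAMtools 1.16.1 and called peaks per library with MACS 1.4.2. The deposited peak lists hold a score, 10 times the negative log10 of the p-value, and the deposited summit lists hold a signal, the tags at the summit. Neither is scaled for depth, so scores were ranked within a list only, and depth after filtering is unknown. The study's methods speak of merged replicates, while its reporting summary describes a single performance without replication.

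Peaks were merged at 1 bp overlap. Start sites and exons came from the GENCODE mouse annotation and sequence from the GRCm38 patch release, the assembly of mm10. Peaks off the placed chromosomes (18 for Nr5a2 and 16 for Oct4) were classed but not annotated. Motifs were searched on both strands within 50 bp of summits and in windows centred 500 bp away. Shares carry exact 95% binomial intervals, which cover counting error only. No test was made, with 1 library per factor. Named genes came from 6 gene lists, the strongest 10 regions and the 10 genes with most summits of each class, and the printed sequences. Members and lists were chosen with earlier results of these data known. Alternatives were the top 20000 and 5000 peaks, a score of at least 100, 50% overlap, summits within 100 bp, other promoter and motif windows and looser motifs. Python 3.11.15, pandas 2.3.3, numpy 2.4.6, scipy 1.17.1 and matplotlib 3.10.9 were used, and the scripts were tested on simulated data.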

Additional observations from a re-analysis of the deposited data

How the results depend on the processing

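Of 73 values recomputed under an alternative, 25 moved by less than their counting interval or stayed within 1.5 times a count, 47 moved by more and 1 reversed. No paired analysis was possible because each factor had 1 library and no test was made. For the same reason no replicate could be left out.

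The shared regions, 13851 in all, numbered 2664 with the top 20000 peaks, 324 with the top 5000, 6643 with scores of at least 100 and 5241 with summits within 100 bp. The promoter share of Nr5a2 only summits was 8.06% within 500 bp, 33.7% within 5 kb, 9.72% with protein-coding start sites only, 27.6% in the top 20000 and 22.2% with scores of at least 100. That of shared Nr5a2 summits was 41.3%, 59.2%, 44.4%, 72.4% and 60.3% in the same order, and 54.8% with 50% overlap. That of Oct4 only summits was 3.23%, 22.3%, 4.09%, 14.3% and 10.96%. The order of the classes was the same in each of these settings.

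The median summit spacing was 122 bp in the top 20000 and 153 bp with scores of at least 100. The NR5A enrichment of Nr5a2 only summits was 6.34-fold with a 100 bp window, 4.74-fold in the top 20000 and 9.66-fold for the core. That of shared Nr5a2 summits was 3.67, 4.0 and 6.16-fold, and 1.48-fold for summits within 100 bp. The octamer enrichment of Oct4 only summits was 4.93-fold with a 100 bp window, 7.28-fold in the top 20000 and 2.98-fold with a free position in the octamer. That of shared Oct4 summits was 2.29-fold with the free position and 3.58-fold for summits within 100 bp.

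With the top 20000 classed among themselves, the overlap with the own fusion was 97.0% for Nr5a2 only and 99.7% for shared Nr5a2 peaks, and 89.5% for Oct4 only and 97.9% for shared Oct4 peaks. Genes with a promoter summit numbered 4440 for Nr5a2 only within 500 bp and 3577 in the top 20000, 2159 for shared in the top 20000, and 601 for Oct4 only within 500 bp. The ratio of Nr5a2 to Oct4 summits near listed genes was 1.5 (pluripotency), 1.67 (Nr5a2 targets), 1.17 (mesenchymal), 2.44 (epithelial) and 1.56 (nuclear receptors) in the top 20000, and 0.743 for the POU family, where the direction turned. The lists have equal lengths there by construction.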
